A study of Homo sapiens with 12 samples.

Results

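The annexins are proteins that bind acidic phospholipids when calcium rises, and the genes described are the 10 listed members ANXA1, ANXA2, ANXA3, ANXA4, ANXA5, ANXA6, ANXA7, ANXA8, ANXA8L1 and ANXA11. They were picked by symbol and matched to Ensembl identifiers in a gene table of 60664 identifiers. Total RNA was sequenced from 12 libraries of cultured human hepatoma cells in 4 groups of 3. The groups were MHCC-97H with si-CENPU, MHCC-97H with si-NC, Huh-7 with si-CENPU and Huh-7 with si-NC. The small interfering RNA si-CENPU targets CENPU, which encodes an inner kinetochore protein, and si-NC is the control small interfering RNA. The labels give the si-CENPU groups the genotype "CENPU knockdown" and the si-NC groups "WT". MHCC-97H is a hepatocellular carcinoma line, and Huh-7 comes from a hepatoma and secretes plasma proteins of the liver. A source label names tumour tissue, whereas the line, cell type and growth labels name cultured cells. Whether libraries of the same group were grown as independent cultures is not stated, so the p-values reflect the spread among these libraries, which may be technical. The time after transfection is not stated either.

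Annexins share a folded core of repeats through which calcium ions bridge the protein to a membrane, and differ in the stretch before that core, which binds partners. They are known for membrane repair, vesicle traffic, and the linking of membrane to the actin cortex. Normal hepatocytes are rich in ANXA6 and hold little ANXA1 or ANXA2 compared with many epithelia, and ANXA2 is known to be raised in liver tumours. ANXA8 and ANXA8L1 are near-identical copies in the same part of chromosome 10. Their coding sequences in GENCODE release 29, without the stop codon, were each 1095 bases long and differed at 5 of them, an identity of 99.5%. The next closest pair, ANXA4 and ANXA5, was 60.5% identical. The stretch with the densest differences, bases 614 to 673 of the coding sequence, is shown because it shows how few bases set the copies apart, with the differing bases in capitals.
ANXA8: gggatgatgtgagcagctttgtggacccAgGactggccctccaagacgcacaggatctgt
ANXA8L1: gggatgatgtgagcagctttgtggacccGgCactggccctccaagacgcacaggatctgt
Of all stretches of 50 bases in the ANXA8 coding sequence, 84.6% also occurred in an ANXA8L1 transcript. How the authors' counting divided reads between the copies is not stated, so the level of each copy is uncertain and their sum is given too.

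The genes lie at the following places on GRCh38, per GENCODE release 29, and each value is for a whole protein-coding gene. ANXA1 lies at chr9:73151757-73170393 on the plus strand, ANXA2 at chr15:60347134-60402883 on the minus strand and ANXA3 at chr4:78551519-78610451 on the plus strand. ANXA4 lies at chr2:69644425-69827100 on the plus strand, ANXA5 at chr4:121667955-121697113 on the minus strand and ANXA6 at chr5:151100712-151157882 on the minus strand. On chromosome 10 lie ANXA7 at chr10:73375101-73414076, ANXA8 at chr10:47460162-47484158 and ANXA11 at chr10:80150889-80205572, all on the minus strand, and ANXA8L1 at chr10:46375627-46391784 on the plus strand. ANXA4 overlaps AAK1 on the opposite strand, which was at 0.01 to 3.53 TPM, and with no strand setting stated their reads may not be told apart. ANXA8L1 overlaps 2 genes of processed transcripts on its own strand, which were at no more than 1.16 TPM. Their reads may not be told apart from those of ANXA8L1 either. ANXA2 shares 56.3% of its stretches of 50 coding bases with the pseudogene ANXA2P2, which was listed at no more than 0.05 TPM in any library.

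Upstream sequence is shown for the member with the highest level, for the member that was lower in MHCC-97H and for a member that was near 0 in Huh-7. Each window runs 250 bases before to 50 bases after a RefSeq start on GRCh38.p14, and RefSeq gave 13 such windows for 9 of the 10 members, with none for ANXA8. Capitals mark matches, on either strand, to GGGCGG, known as the GC box, to TGANTCA, the AP-1 motif, to TATAAA, the TATA box, or to the box with the letters CCAAT. Neighbouring matches to GGGCGG may overlap.
ANXA2, chr15:60397937-60398236, minus strand: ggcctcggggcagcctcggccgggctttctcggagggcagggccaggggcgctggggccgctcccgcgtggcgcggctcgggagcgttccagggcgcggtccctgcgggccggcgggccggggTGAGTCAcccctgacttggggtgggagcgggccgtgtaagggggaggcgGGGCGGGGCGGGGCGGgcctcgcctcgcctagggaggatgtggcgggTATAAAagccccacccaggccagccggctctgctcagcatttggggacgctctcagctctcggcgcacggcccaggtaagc
ANXA4, chr2:69741884-69742183, plus strand: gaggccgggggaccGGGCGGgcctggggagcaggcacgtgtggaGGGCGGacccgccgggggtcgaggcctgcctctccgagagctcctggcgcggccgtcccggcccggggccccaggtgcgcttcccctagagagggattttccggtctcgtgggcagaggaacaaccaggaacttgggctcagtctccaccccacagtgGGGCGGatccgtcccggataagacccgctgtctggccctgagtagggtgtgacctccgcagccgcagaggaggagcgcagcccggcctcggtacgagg
ANXA8L1, chr10:46375526-46375825, plus strand: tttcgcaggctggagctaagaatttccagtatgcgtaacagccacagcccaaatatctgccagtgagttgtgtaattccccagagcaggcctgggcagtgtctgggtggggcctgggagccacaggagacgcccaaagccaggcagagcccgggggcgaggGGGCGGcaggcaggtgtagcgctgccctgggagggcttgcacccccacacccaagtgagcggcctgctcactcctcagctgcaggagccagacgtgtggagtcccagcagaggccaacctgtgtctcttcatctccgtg
The ANXA2 window held 3 matches to GGGCGG, 1 to TGANTCA and 1 to TATAAA, with a GC content of 76% and 32 CpG dinucleotides. ANXA4 had 3 matches to GGGCGG and 27 CpG in the window shown, and a second ANXA4 window at another start had 6 matches and 44 CpG. The ANXA8L1 window held 1 match to GGGCGG and 10 CpG, and the ANXA1 window held none of either, with 2 matches to CCAAT and 1 to TATAAA. Among 35116 RefSeq windows of the same length, 45.0% held GGGCGG, 7.71% TGANTCA, 34.6% CCAAT and 11.5% TATAAA, with a median of 14 CpG. A match describes the letters only.

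Expression is given in TPM, a transcript level scaled for transcript length and to a fixed total per library, so levels can be compared between genes, but the unit keeps no sequencing depth and the depth behind each value is unknown. The columns summed to between 998416 and 999065 TPM, with 18639 to 20900 genes above 0. The library that stood apart was Huh-7 si-NC replicate 1, with a mean correlation of 0.965 to the other libraries of its line, against 0.970 to 0.978 for each other library of either line. CENPU itself was at 0.22, 0.45 and 0.24 TPM in MHCC-97H with si-CENPU, against 1.17, 0.83 and 0.89 TPM with si-NC. In Huh-7 it was at 0.17, 0.11 and 0.45 TPM with si-CENPU, against 0.56, 0.84 and 0.53 TPM with si-NC. The CENPU libraries did not overlap between treatments in either line, and the exact two-sided permutation p was 0.1 in each line, the smallest that 3 against 3 libraries can give. CENPU overlaps PRIMPOL on the opposite strand, which was at 0.12 to 0.73 TPM. Of 9 hepatocyte and hepatoma markers, KRT8 and KRT18 averaged at least 1 TPM in MHCC-97H, where ALB and APOB were listed at no more than 0.03 TPM, whereas 9 of 9 did in Huh-7. The biliary keratins also separated the lines, with KRT7 at 510 to 594 TPM in MHCC-97H and at most 0.44 TPM in Huh-7, and KRT19 at no more than 0.46 TPM in MHCC-97H and 181 to 212 TPM in Huh-7. Endothelial markers summed to at most 0.68 TPM and fibroblast and stellate markers to at most 1.64 TPM in MHCC-97H and 6.45 TPM in Huh-7. Of the leukocyte markers, CD68 was at 15.6 to 19.1 TPM in MHCC-97H and 35.7 to 46.2 TPM in Huh-7, LYZ was at no more than 0.03 TPM in MHCC-97H and 11.4 to 25.7 TPM in Huh-7, and CD3E was at most 0.08 TPM. PTPRC was not analysed here.

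ANXA2, which joins S100A10 in a tetramer at the plasma membrane, was the most abundant annexin in all 12 libraries. It averaged 202 ± 34.2 TPM in MHCC-97H with si-CENPU, 230 ± 55.3 TPM in MHCC-97H with si-NC, 75.4 ± 12.3 TPM in Huh-7 with si-CENPU and 89.4 ± 20.2 TPM in Huh-7 with si-NC (SD, n = 3 each, as for all means). ANXA5, which binds exposed phosphatidylserine and slows clotting, and ANXA11, which has a long flexible stretch before its core, came next and overlapped in every group. In MHCC-97H the order went on with ANXA8 and ANXA8L1, whose libraries overlapped with each other but lay below those of ANXA5 and ANXA11. The remaining members averaged 5.81 to 11.9 TPM in MHCC-97H, in the order ANXA7, ANXA3, ANXA4, ANXA6 and ANXA1 with si-CENPU, whereas ANXA3 came before ANXA7 with si-NC. Neighbours in each of those orders overlapped. In Huh-7 the order after ANXA5 and ANXA11 was ANXA4, ANXA3, ANXA6, ANXA7 and ANXA1. ANXA4 there lay apart from its neighbours on either side, while ANXA6 and ANXA7 overlapped in both Huh-7 groups. ANXA8 and ANXA8L1 stood last in Huh-7.

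**Figure D1:**
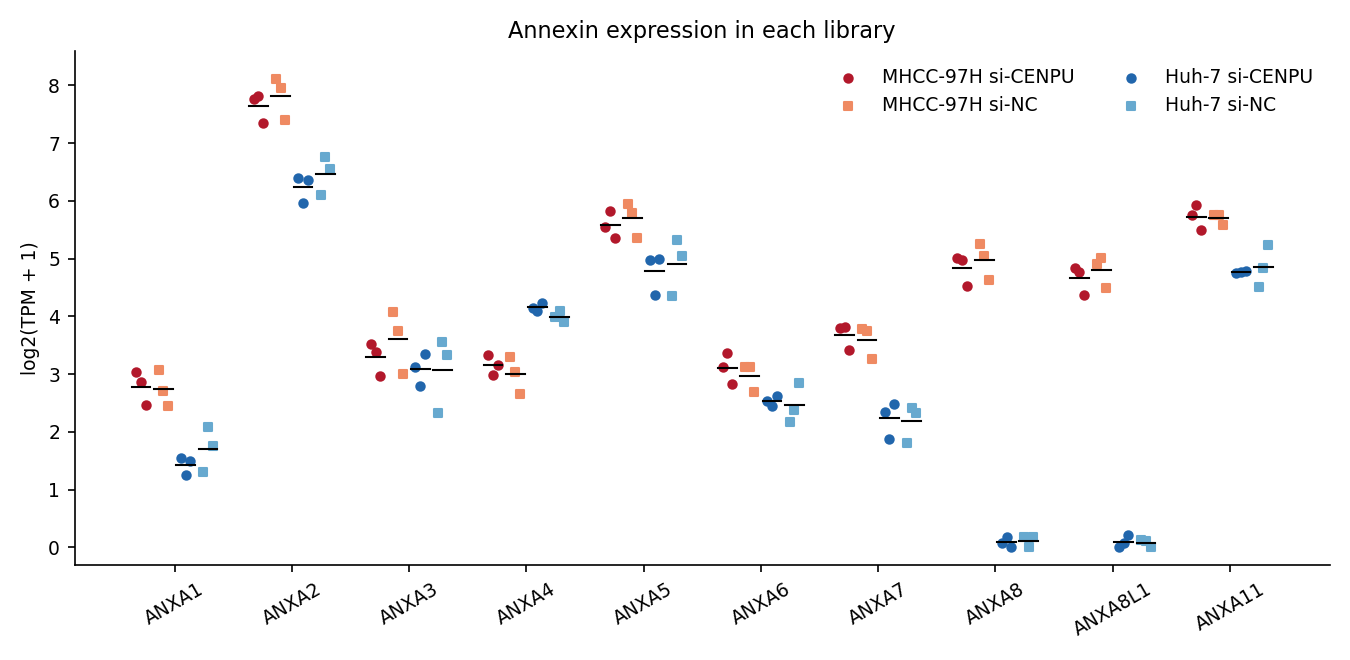
Levels of the 10 annexins on the log2(TPM + 1) scale, with 1 point per library and a line at the mean of each group of 3. ANXA2 is highest throughout, ANXA4 is the member whose MHCC-97H libraries lie below those of Huh-7, and ANXA8 and ANXA8L1 lie near 0 in Huh-7.

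Together the 10 genes held 396 ± 63.6 TPM in MHCC-97H with si-CENPU, 434 ± 91.7 TPM in MHCC-97H with si-NC, 164 ± 22.2 TPM in Huh-7 with si-CENPU and 182 ± 40.9 TPM in Huh-7 with si-NC. The lowest MHCC-97H sum, 323 TPM, lay above the highest Huh-7 sum, 212 TPM, whereas the sums with si-CENPU and si-NC overlapped within each line. ANXA2 made up 50.8 ± 0.650% of the annexin TPM in MHCC-97H with si-CENPU, 52.7 ± 1.76% in MHCC-97H with si-NC, 46.0 ± 1.64% in Huh-7 with si-CENPU and 49.2 ± 1.74% in Huh-7 with si-NC. ANXA8 and ANXA8L1 together made up 13.2 ± 0.594% in MHCC-97H with si-CENPU and 13.5 ± 0.366% in MHCC-97H with si-NC, and no more than 0.170% in any Huh-7 library. Without this pair the sums were 344 ± 54.6 TPM in MHCC-97H with si-CENPU, 375 ± 80.4 TPM in MHCC-97H with si-NC, 164 ± 22.2 TPM in Huh-7 with si-CENPU and 182 ± 41.0 TPM in Huh-7 with si-NC, and the lines still did not overlap.

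**Figure D2:**
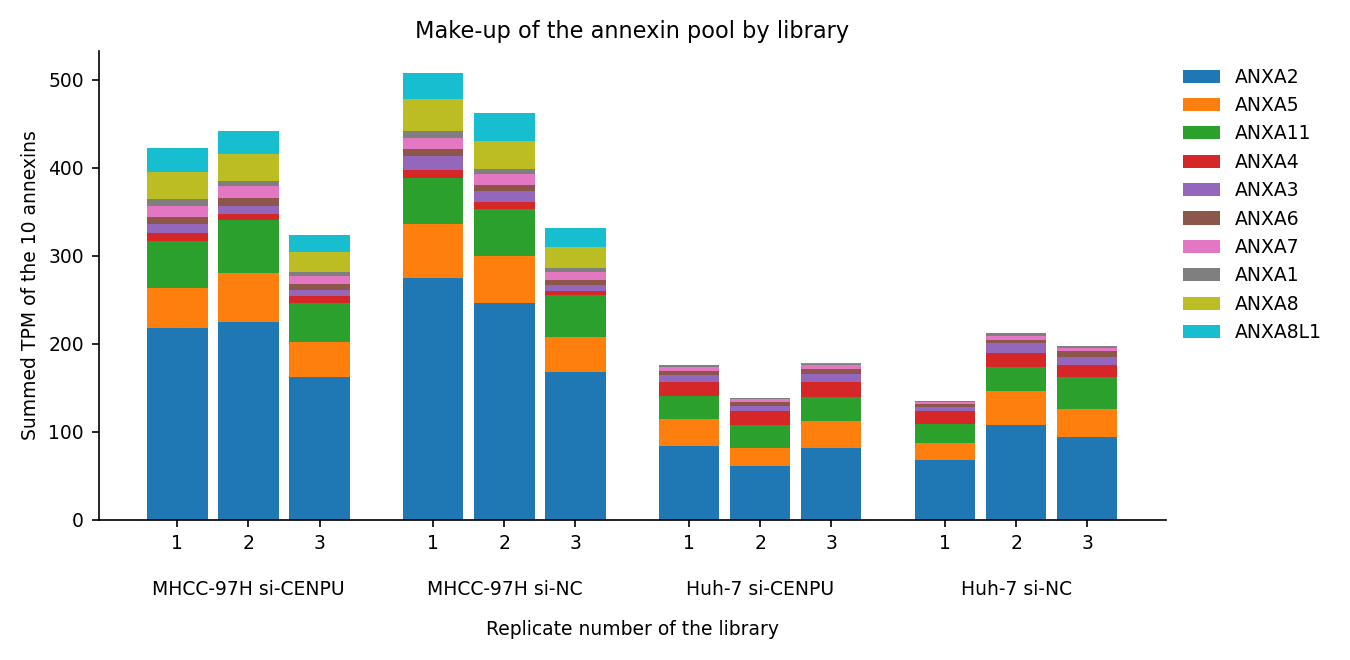
Summed TPM of the 10 annexins in each library, stacked by gene, with libraries grouped by line and treatment. MHCC-97H sums run from 323 to 508 TPM and Huh-7 sums from 135 to 212 TPM, and ANXA2 is the widest band in every bar.

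The lines were compared on the log2(TPM + 1) scale with limma, fitted to all 11088 genes that averaged at least 1 TPM, and genes with a Benjamini-Hochberg adjusted p below 0.05 over all of them were called. All 10 annexins reached that average, but ANXA8 and ANXA8L1 did so only through MHCC-97H, so the filter set their direction and they are described without a test. Of the other 8, 6 were higher in MHCC-97H than in Huh-7 with si-CENPU, ANXA4 was lower and ANXA3 was not called. Of all tested genes 70.1% were called, 46.2% as higher and 23.9% as lower, and of the 8005 that averaged at least 1 TPM in each line 63.6% were called, 44.1% as higher and 19.5% as lower. With si-NC the split was the same by gene, where 73% of all tested genes were called, 50.1% as higher and 22.9% as lower, and of those 8005 genes 67%, 48.8% and 18.2%. The median difference of the 8 annexins was 0.88 with si-CENPU and 0.82 with si-NC, beside 0.35 and 0.45 for the 8005 genes. Library ranges of the lines did not overlap for 6 of the 8 in the higher direction and 1 in the lower with si-CENPU, where 74.7% of all tested genes did not overlap, 49.3% higher and 25.4% lower. With si-NC they did not overlap for 5 higher and 1 lower, where the shares of all tested genes were 73%, 49.6% and 23.4%. Of the 8005 genes that averaged at least 1 TPM in each line, 3829 were apart as higher and 1713 as lower with si-CENPU. With si-NC 3878 of them were apart as higher and 1500 as lower. When the outlying Huh-7 si-NC replicate 1 was left out, 4 of the 8 were higher and 1 lower with si-NC. Of all 11088 tested genes, which include those that averaged under 1 TPM in 1 line, 5006 were then higher and 2642 lower. ANXA5 and ANXA6 were no longer called. The line comparisons use separate libraries for each treatment. Because each line is a single cell source, a difference between the lines cannot be told apart from how each was grown or prepared, nor, in bulk RNA, can fewer expressing cells from less RNA per cell.

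ANXA8, a phospholipid binder of stratified epithelia, was at 31.2, 30.63 and 21.97 TPM in MHCC-97H with si-CENPU, against 0.06, 0.14 and 0 TPM in Huh-7 with si-CENPU. With si-NC it was at 37.28, 32 and 23.88 TPM in MHCC-97H, against 0.13, 0 and 0.13 TPM in Huh-7. ANXA8L1 was at 27.57, 26.11 and 19.75 TPM in MHCC-97H with si-CENPU, against 0, 0.06 and 0.16 TPM in Huh-7 with si-CENPU. The lowest MHCC-97H library of either copy was at 19.75 TPM and the highest Huh-7 library at 0.16 TPM. With si-NC, ANXA8L1 was at 29.04, 31.35 and 21.44 TPM in MHCC-97H, against 0.1, 0.08 and 0 TPM in Huh-7. Summed over both copies, the level was 52.4 ± 9.31 TPM in MHCC-97H with si-CENPU and 58.3 ± 11.4 TPM in MHCC-97H with si-NC, and 0.06 to 0.23 TPM over the 6 Huh-7 libraries. ANXA8 was 1.14 ± 0.0310 times ANXA8L1 in MHCC-97H with si-CENPU and 1.14 ± 0.133 times with si-NC. No test and no fold are given for the pair. A value at or near 0 can be a failed estimate, which was not tested for ANXA8 and ANXA8L1 in Huh-7.

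ANXA7, an annexin with a long stretch before its core that binds sorcin and PDCD6, was at 12.98, 13.03 and 9.68 TPM in MHCC-97H with si-CENPU, against 4.1, 2.66 and 4.62 TPM in Huh-7 with si-CENPU. The si-NC libraries were at 12.8, 12.44 and 8.62 TPM in MHCC-97H, against 2.51, 4.32 and 4.02 TPM in Huh-7. The lines did not overlap under either treatment, with ratios of means of 3.14 and 3.12. On the log2 scale ANXA7 was higher in MHCC-97H by 1.44 with si-CENPU and 1.42 with si-NC (SE 0.222 each, limma adjusted p 1.29e-04 and 1.42e-04). ANXA2 was at 217.57, 224.84 and 162.23 TPM in MHCC-97H with si-CENPU, against 83.55, 61.29 and 81.41 TPM in Huh-7 with si-CENPU. Its si-NC libraries were at 275.15, 245.73 and 168.09 TPM in MHCC-97H, against 67.42, 107.2 and 93.43 TPM in Huh-7. All 6 MHCC-97H libraries lay above all 6 Huh-7 libraries for ANXA2. Its log2 difference was 1.40 with si-CENPU and 1.35 with si-NC (SE 0.222 each, limma adjusted p 1.57e-04 and 2.10e-04), with ratios of means of 2.67 and 2.57.

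ANXA1, known for damping inflammation through formyl peptide receptors, was at 7.19, 6.26 and 4.52 TPM in MHCC-97H with si-CENPU, against 1.94, 1.39 and 1.82 TPM in Huh-7 with si-CENPU. Under si-NC it was at 7.39, 5.55 and 4.48 TPM in MHCC-97H, against 1.47, 3.23 and 2.37 TPM in Huh-7. The lines did not overlap for ANXA1, although its levels were low in both. It was higher in MHCC-97H by 1.35 with si-CENPU and 1.03 with si-NC on the log2 scale (SE 0.228 each, limma adjusted p 2.64e-04 and 0.00170). After a correction for transcript GC content, an alternative chosen after seeing the data, the si-NC difference was 0.24 and was not called (adjusted p 0.0758). The receptor genes FPR2 and FPR3 were listed at 0 in all 12 libraries, and FPR1 was at 0.08 TPM in MHCC-97H si-CENPU replicate 2 and listed at 0 in the rest.

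ANXA11, which tethers RNA granules to lysosomes in nerve cells, was at 53.32, 59.74 and 44.28 TPM in MHCC-97H with si-CENPU, against 26.01, 26.36 and 26.71 TPM in Huh-7 with si-CENPU. With si-NC it was at 53, 53.23 and 46.9 TPM in MHCC-97H, against 21.8, 27.61 and 36.83 TPM in Huh-7. ANXA11 did not overlap between the lines and was higher in MHCC-97H by 0.96 with si-CENPU and 0.84 with si-NC on the log2 scale (SE 0.165 each, limma adjusted p 3.17e-04 and 7.99e-04). ANXA5 was at 45.68, 55.55 and 40.16 TPM in MHCC-97H with si-CENPU, against 30.55, 19.75 and 30.74 TPM in Huh-7 with si-CENPU. The si-NC libraries were at 60.7, 54.51 and 39.88 TPM in MHCC-97H, against 19.39, 38.8 and 31.86 TPM in Huh-7. The closest ANXA5 libraries with si-NC were 39.88 TPM in MHCC-97H and 38.8 TPM in Huh-7, so the lines were apart by little. Its log2 difference was 0.80 with either treatment (SE 0.260, limma adjusted p 0.0173 with si-CENPU and 0.0162 with si-NC). ANXA6, the annexin with the largest core, was at 7.73, 9.26 and 6.12 TPM in MHCC-97H with si-CENPU, against 4.77, 4.49 and 5.14 TPM in Huh-7 with si-CENPU. Its si-NC libraries were at 7.67, 7.72 and 5.44 TPM in MHCC-97H, against 3.5, 4.19 and 6.17 TPM in Huh-7, and these libraries overlapped. ANXA6 was higher in MHCC-97H by 0.57 with si-CENPU and 0.51 with si-NC on the log2 scale (SE 0.197 each, limma adjusted p 0.0223 and 0.0343). The ANXA5 call was lost with si-CENPU without replicate 2 of MHCC-97H (0.67, adjusted p 0.0682) or of Huh-7 (0.59, adjusted p 0.0772), and with si-NC without replicate 1 of MHCC-97H (0.67, adjusted p 0.0645) or of Huh-7 (0.52, adjusted p 0.0670). The ANXA6 call was lost without replicate 1 or 2 of either line within the treatment compared, at 0.44 to 0.57 with si-CENPU (adjusted p 0.0537 to 0.0932) and 0.37 to 0.47 with si-NC (adjusted p 0.0899 to 0.130).

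ANXA4, an annexin of secretory epithelia, was the member that was lower in MHCC-97H. It was at 9.07, 6.96 and 7.93 TPM in MHCC-97H with si-CENPU, against 16.71, 16.08 and 17.82 TPM in Huh-7 with si-CENPU. Under si-NC it was at 8.84, 7.25 and 5.34 TPM in MHCC-97H, against 14.89, 16.04 and 13.96 TPM in Huh-7. The lines did not overlap, and the ratio of means was 0.473 with si-CENPU and 0.477 with si-NC. ANXA4 was lower in MHCC-97H, with log2 differences of -0.997 with si-CENPU and -0.992 with si-NC (SE 0.153 each, limma adjusted p 1.29e-04 and 1.31e-04). ANXA3 was at 10.56, 9.45 and 6.82 TPM in MHCC-97H with si-CENPU, against 7.7, 5.91 and 9.15 TPM in Huh-7 with si-CENPU. With si-NC it was at 15.85, 12.45 and 7.05 TPM in MHCC-97H, against 4.01, 10.76 and 9.06 TPM in Huh-7. ANXA3 overlapped between the lines under both treatments, with log2 differences of 0.21 with si-CENPU and 0.54 with si-NC (95% intervals -0.54 to 0.96 and -0.21 to 1.29). Without MHCC-97H si-NC replicate 3 the si-NC difference was 0.84 and was called by limma (adjusted p 0.0443).

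**Figure D3:**
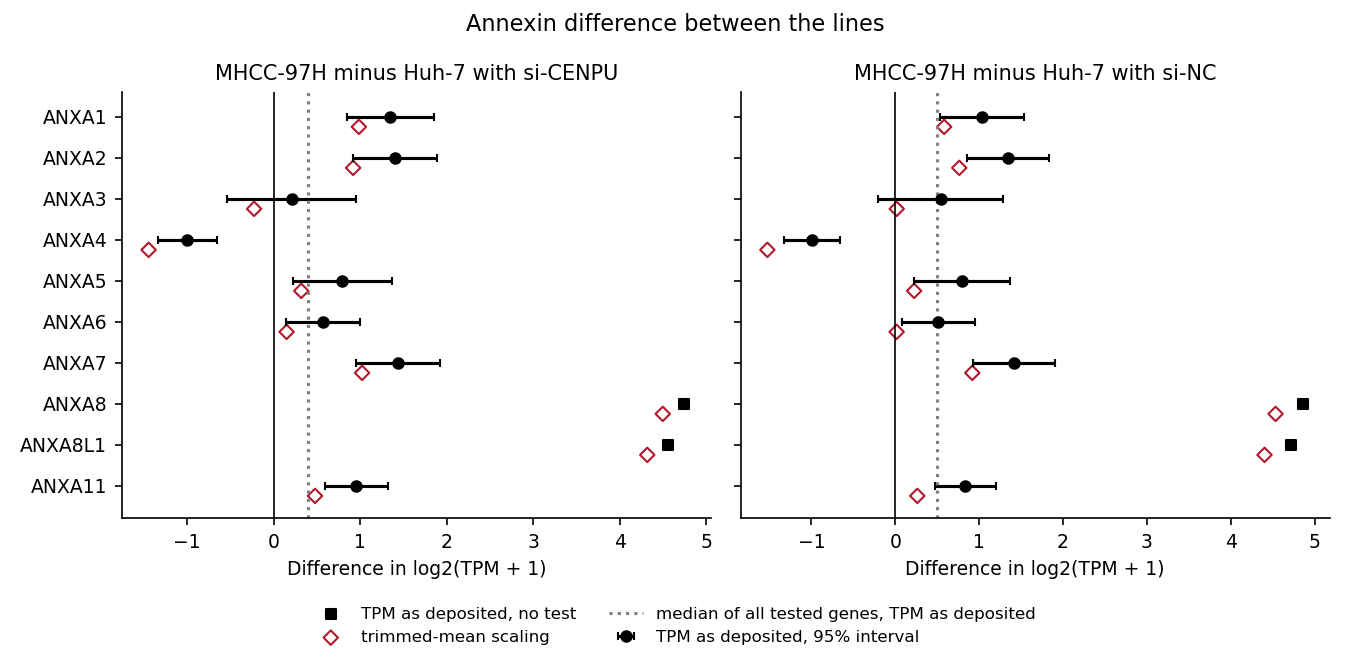
Difference in log2(TPM + 1) between the lines, MHCC-97H minus Huh-7, for each annexin with si-CENPU (left) and si-NC (right). Black points with 95% intervals are from TPM as deposited, squares are the differences of ANXA8 and ANXA8L1 with no test, open diamonds are after trimmed-mean scaling, and the dotted line is the median of all tested genes; ANXA3 with si-CENPU changes sign with that scaling, to -0.23.

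TPM as deposited placed the median of all tested genes above 0 in the line comparison, and trimmed-mean scaling moved that median to 0.03 with si-CENPU and 0.04 with si-NC. After that scaling 49.99% of the called genes with si-CENPU were higher in MHCC-97H, against 65.9% from TPM as deposited, and 50.8% with si-NC, against 68.6%. Relative to the median of all tested genes in TPM as deposited, ANXA4 lay at -1.40 with si-CENPU and -1.49 with si-NC, ANXA2 at 1.002 and 0.854, and ANXA7 at 1.04 and 0.92. ANXA5 lay at 0.39 and 0.30 relative to that median, ANXA6 at 0.17 and 0.02, and ANXA3 at -0.19 and 0.05. After trimmed-mean scaling ANXA1, ANXA2 and ANXA7 were higher and ANXA4 was lower in MHCC-97H by limma under both treatments, and ANXA11 was higher with si-CENPU (0.48, adjusted p 0.00350) but not called with si-NC (0.26, adjusted p 0.0659). ANXA5 and ANXA6 were not called under either treatment after that scaling, with log2 differences of 0.32 and 0.15 with si-CENPU and 0.22 and 0.02 with si-NC.

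In several libraries most annexins deviated from their group mean in the same direction. A gene's deviations cancel over the libraries of a group, so 1 low library puts the others above the mean on balance. All 10 lay below it in MHCC-97H si-CENPU replicate 3, with a median deviation of -0.28 on the log2 scale, beside -0.12 for all tested genes. In MHCC-97H si-CENPU replicates 1 and 2, 9 of 10 lay above it (medians 0.15 and 0.14, beside 0.03 and 0.09). All 10 lay above it in MHCC-97H si-NC replicate 1 (median 0.26, beside 0.09) and below it in MHCC-97H si-NC replicate 3 (median -0.34, beside -0.14). In MHCC-97H si-NC replicate 2, 9 lay above it (median 0.11, beside 0.04). Huh-7 was less one-sided in some libraries, with 5 above and 5 below in Huh-7 si-CENPU replicate 1. Of the 10 annexins, 8 lay below in Huh-7 si-CENPU replicate 2 (median -0.13, beside -0.08). In Huh-7 si-CENPU replicate 3, 9 lay above (median 0.10, beside 0.08). In Huh-7 si-NC replicate 1, 8 of 10 lay below (median -0.36, beside -0.16). In Huh-7 si-NC replicates 2 and 3, 7 and 8 lay above (medians 0.16 and 0.11, beside 0.07 and 0.08). ANXA8 and ANXA8L1 are among the 10 in Huh-7, although they were at no more than 0.16 TPM there. The share of all tested genes on each side was not counted. Over the 12 libraries the deviations from group means correlated most between ANXA2 and ANXA7 (Pearson r = 0.964) and least between ANXA4 and ANXA11 (r = -0.0047). That between ANXA8 and ANXA8L1 was 0.775. These are descriptions over libraries that share their preparation. The deviation of a library's genes from the line mean correlated to differing degrees with transcript GC content. Spearman's rho over genes was 0.039, 0.053 and 0.303 in MHCC-97H si-CENPU replicates 1, 2 and 3, and -0.529, -0.239 and 0.476 in the si-NC replicates of that line. In Huh-7 it was -0.013, 0.133 and -0.230 in si-CENPU replicates 1, 2 and 3, and 0.335, -0.329 and -0.013 in the si-NC replicates. The libraries with the highest rho, 0.476, 0.335 and 0.303, had 10, 8 and 10 annexins below their group mean. Those with the lowest, -0.529, -0.329, -0.239 and -0.230, had 10, 7, 9 and 9 above it. The libraries with rho of 0.039 and 0.053 each had 9 of 10 annexins above the mean. At a rho of 0.133, 8 lay below, and at -0.013, 5 lay above in the si-CENPU library and 8 in the si-NC library. GC content of annexin transcripts ran from 39.8% in ANXA1 to 55.1% in ANXA11, and the part of base composition in the shared deviation was not tested.

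**Figure D4:**
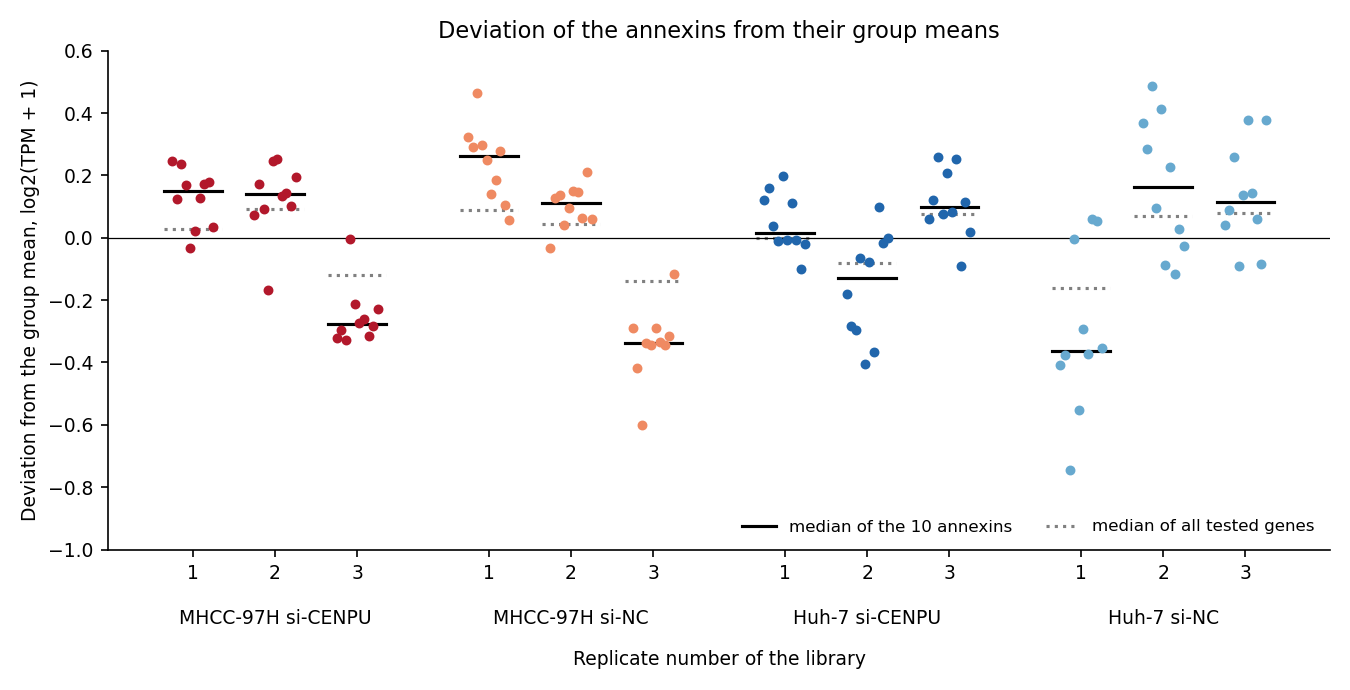
Deviation of each annexin from its group mean in log2(TPM + 1), with 1 point per gene in each library. Solid lines are the annexin median and dotted lines the median of all tested genes; the annexin medians of MHCC-97H si-CENPU replicate 3, MHCC-97H si-NC replicate 3 and Huh-7 si-NC replicate 1 lie at -0.28, -0.34 and -0.36.

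No annexin passed the test for an effect of si-CENPU. In MHCC-97H none of the 10 was called by limma, where 0.00902% of all tested genes were called, and in Huh-7 none was called, again where 0.00902% were. At an unadjusted p below 0.05 the count was also 0 of 10 in each line, where 3.42% of tested genes passed in MHCC-97H and 4.57% in Huh-7. Log2 differences, si-CENPU minus si-NC, ran from -0.32 for ANXA3 to 0.16 for ANXA4 in MHCC-97H and from -0.28 for ANXA1 to 0.16 for ANXA4 in Huh-7, and all limma adjusted p-values were 1. Each line had 5 annexins with a positive and 5 with a negative difference. The Huh-7 counts include ANXA8 and ANXA8L1, which were at no more than 0.16 TPM there and could not show a decrease. The annexin median was -0.05 in MHCC-97H, as for all tested genes, and -0.01 in Huh-7, beside 0.01 for all tested genes.

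The intervals show what size of change these libraries can leave undetected. For ANXA2 the difference was -0.17 in MHCC-97H (95% interval -0.66 to 0.32) and -0.23 in Huh-7 (-0.72 to 0.26). Leaving out 1 library at a time moved it between -0.38 and -0.024 in MHCC-97H and between -0.42 and -0.086 in Huh-7. ANXA4 was the most tightly bounded member, at 0.16 in MHCC-97H (-0.18 to 0.50) and 0.16 in Huh-7 (-0.17 to 0.50). Its 3 Huh-7 libraries with si-CENPU, at 16.71, 16.08 and 17.82 TPM, lay above those with si-NC, at 14.89, 16.04 and 13.96 TPM, by a margin of 16.08 to 16.04 TPM at the closest, and 3.79% of all tested genes were separated in that direction. ANXA3 was the least bounded, at -0.32 in MHCC-97H (-1.06 to 0.43) and 0.01 in Huh-7 (-0.73 to 0.76). Without Huh-7 si-NC replicate 1 the Huh-7 difference of ANXA3 was -0.36, and none of the 10 annexins was called. ANXA1 was at 0.04 in MHCC-97H (-0.46 to 0.54) and -0.28 in Huh-7 (-0.78 to 0.23). No other annexin had separated treatments in Huh-7, where 7.65% of all tested genes did in either direction, and none had in MHCC-97H, where 6.95% did.

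**Figure D5:**
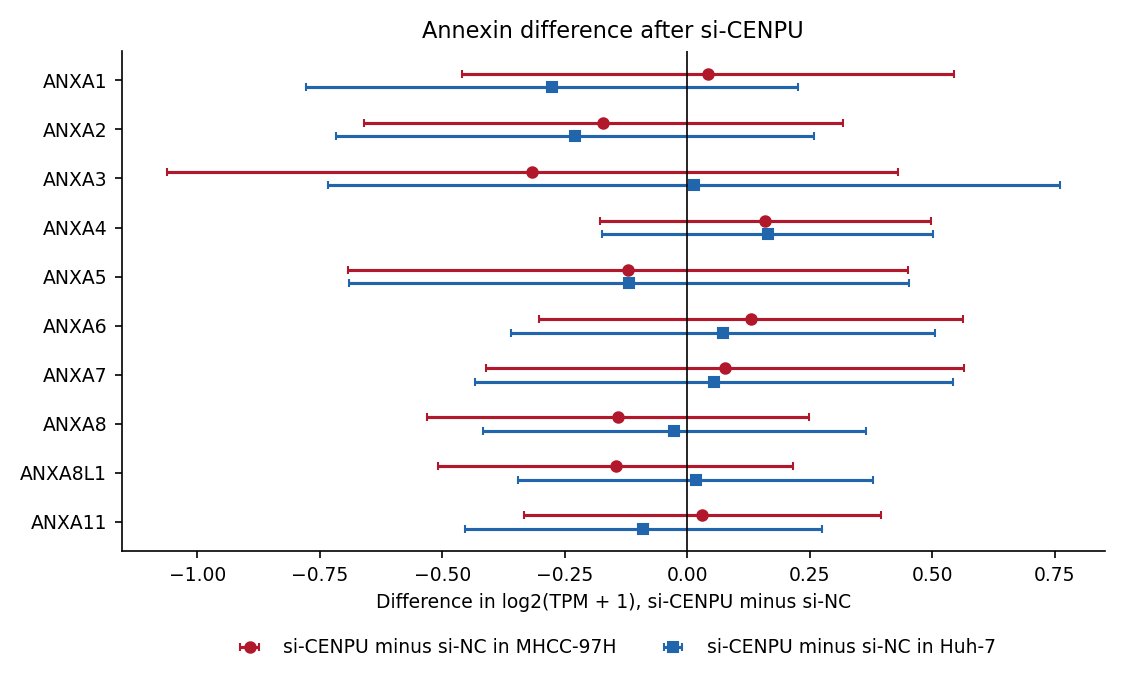
Difference in log2(TPM + 1), si-CENPU minus si-NC, for each annexin in MHCC-97H and in Huh-7, with 95% intervals from limma. All 20 intervals include 0.

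The response to si-CENPU was also compared between the lines. Its difference, MHCC-97H minus Huh-7, ran from -0.33 for ANXA3 (95% interval -1.39 to 0.73) to 0.32 for ANXA1 (-0.39 to 1.03). None of the 10 was called by limma, with adjusted p-values of 0.9988 to 0.9999, where 0.00902% of tested genes were called. The count at an unadjusted p below 0.05 was 0 of 10, where 3.45% of tested genes passed.

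Other genes of the family were mostly low. ANXA9 was at 2.95, 2.47 and 2.37 TPM in MHCC-97H with si-CENPU, against 5.21, 7.3 and 5.65 TPM in Huh-7 with si-CENPU. The si-NC libraries were at 3.05, 2.86 and 3.11 TPM in MHCC-97H, against 5.95, 6.05 and 5.94 TPM in Huh-7. It was lower in MHCC-97H by limma, with log2 differences of -0.96 with si-CENPU (adjusted p 3.58e-05) and -0.80 with si-NC (adjusted p 1.53e-04). ANXA10 was at no more than 0.17 TPM and ANXA13 at no more than 0.38 TPM, and the pseudogene ANXA2P1 was listed at 0 in every library. ANXA2R, named as a receptor for ANXA2, was at 1.22 to 2.5 TPM in MHCC-97H and 1.58 to 2.96 TPM in Huh-7, and was not called in any comparison.

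Of 16 listed partners of annexins, 9 were tested, and none was called for si-CENPU in either line. Between the lines 5 of the 9 were higher and 2 lower in MHCC-97H with si-CENPU, and 4 higher and 1 lower with si-NC, beside the 70.1% and 73% of all tested genes that were called. All 9 averaged at least 1 TPM in each line, and of the 8005 genes that did, 63.6% and 67% were called. The partners called were 7 of 9 with si-CENPU, above that share, and 5 of 9 with si-NC, below it. Neither difference from that share was tested. S100A10, the partner of ANXA2, was at 567.38, 596.77 and 444.83 TPM in MHCC-97H with si-CENPU, against 383.47, 302.82 and 392.77 TPM in Huh-7 with si-CENPU. Its log2 difference was 0.57 with si-CENPU (limma adjusted p 0.0252) and 0.46 with si-NC (adjusted p 0.0585). S100A11, the partner of ANXA1, averaged 1678 TPM in MHCC-97H and 722 TPM in Huh-7 with si-CENPU, a log2 difference of 1.22 (limma adjusted p 2.78e-08), and the difference with si-NC was 1.32 (adjusted p 1.35e-08). S100A6 was higher in MHCC-97H by 2.40 with si-CENPU and 2.35 with si-NC, and S100A4 by 6.37 and 6.56. PDCD6, a calcium sensor that binds ANXA7 and ANXA11, averaged 72.9 TPM in MHCC-97H and 10.7 TPM in Huh-7 with si-CENPU, a log2 difference of 2.65, and differed by 3.02 with si-NC. SRI, which encodes sorcin, differed by 0.40 with si-CENPU (limma adjusted p 0.135) and 0.51 with si-NC (adjusted p 0.0594). PEF1, a relative of PDCD6, was lower in MHCC-97H by limma, with differences of -0.68 with si-CENPU and -0.44 with si-NC. AHNAK, a large scaffold bound by ANXA2 and S100A10, was lower in MHCC-97H than in Huh-7 with si-CENPU (-0.28, limma adjusted p 0.04996) and was not called with si-NC (-0.045, adjusted p 0.737).

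Of 13 listed genes of membrane repair and the ESCRT machinery, 12 were tested and none was called for si-CENPU in either line. EHD2, TSG101 and VPS4B averaged under 1 TPM in Huh-7 and passed the filter only through MHCC-97H, so their direction was set by it. Of the other 9, 7 were higher and 1 lower in MHCC-97H with si-CENPU, and 8 higher and 1 lower with si-NC, where 63.6% and 67% of the 8005 genes averaging at least 1 TPM in each line were called. The median log2 difference of the 9 was 1.16 with si-CENPU and 1.18 with si-NC, beside 0.35 and 0.45 for those 8005 genes. EHD2, an ATPase of caveolae, averaged 10.9 TPM in MHCC-97H with si-CENPU and was at no more than 0.11 TPM in any Huh-7 library. MYOF, a ferlin that patches membranes, differed by 3.26 with si-CENPU and 3.37 with si-NC, and CAPN2, a calpain protease, by 2.95 and 2.98. TGM2, a crosslinking enzyme, was the member that was lower in MHCC-97H, at -0.59 with si-CENPU and -0.53 with si-NC. DYSF averaged under 1 TPM and was not tested.

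The genes whose pattern over the 12 libraries was most like that of 3 annexins were found by Pearson's r of log2(TPM + 1). For ANXA2 they were HNRNPK, ECI2 and RPL5, each with r of 0.996. For ANXA1 they were PRPS1 (0.991), GOLM2 (0.988) and METAP2 (0.986), and for ANXA5 they were TCP1 (0.991), STMN1 (0.990) and MAPRE1 (0.987). The libraries fall into 2 clusters by line, so these values mostly describe the difference between the lines and carry no p.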

How the data were processed

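The authors deposited TPM (transcript abundance scaled to a fixed total) for 60664 Ensembl gene identifiers in 12 samples, 3 in each of 4 groups. HISAT2, StringTie and GRCh38.p13 are named, per the submitters' processing notes, and the versions, annotation release, strand setting and filters are not stated. Per the labels' protocols, libraries were made from total RNA with an Illumina TruSeq kit. TPM keeps no depth, so no counting interval is given. Groups and replicate numbers came from the sample titles. Symbols were matched by identifier, for 60447 identifiers.

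Genes averaging at least 1 TPM (11088) were tested on log2(TPM + 1) with limma 3.58.1 in R 4.3.3, with 1 mean per group over all 12 samples and moderation with a trend. Two-sided p-values were adjusted by Benjamini-Hochberg within each comparison and called below 0.05. A pseudocount of 1 understates changes of low genes. The scripts were tested on simulated data. The members and lists were chosen with earlier results of these data known. Genes named are the 10 members, CENPU, listed family, partner and repair genes that were called or fixed by name, cell markers, and for 3 members the 3 genes with the highest correlation; other genes named from the lists were chosen after their values were seen. Samples were not treated as paired by replicate number in the main fit. Same-numbered deviations correlated at -0.121 to 0.134 and differently numbered ones at -0.116 to 0.157. These values show no sign of pairing but cannot decide whether same-numbered samples were handled together. The alternatives were other pseudocounts (0.1, 0.5), other filters (none, or a mean of at least 5 TPM), trimmed-mean and quantile scaling, rescaling without mitochondrial and the 100 most abundant genes, only the groups compared, a replicate block, moderation without a trend or robust, each library left out, and, chosen after seeing the data, a correction for transcript GC content.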

Additional observations from a re-analysis of the deposited data

How the results depend on the processing

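No annexin was called for si-CENPU in MHCC-97H, in Huh-7 or for the difference between the lines under any alternative run. The number called between the lines was 9 with si-CENPU and 9 with si-NC, where 7772 and 8099 of the 11088 tested genes were called. ANXA8 and ANXA8L1 are counted here, although the filter set their direction. It was 7 and 6 after trimmed-mean scaling, where 7561 and 7661 genes were called. After quantile scaling it was 8 and 8, where 7749 and 7862 were. The added GC correction gave 8 and 6, where 7684 and 7768 were. The replicate block gave 9 and 8, where 7566 and 7940 were. When each library was left out it was 7 to 9 and 7 to 10, where 7042 to 8061 and 7465 to 8213 were. Without the pair, trimmed-mean scaling left 4 of 8 higher and 1 lower with si-CENPU, and 3 higher and 1 lower with si-NC. With si-NC 10 were called without MHCC-97H si-NC replicate 3, where ANXA3 differed by 0.84 (limma adjusted p 0.0443), and 7 without Huh-7 si-NC replicate 1 or without MHCC-97H si-NC replicate 1. ANXA2, ANXA4 and ANXA7 were called under each of 24 settings with either treatment. ANXA1 was lost with si-NC after GC correction (0.24, adjusted p 0.0758). ANXA5 was lost in 4 of 24 settings and ANXA6 in 6 of 24 with si-CENPU, and in 4 and 10 with si-NC; with the replicate block ANXA6 had an adjusted p of 0.0570 with si-NC. ANXA3 changed sign between the lines, to -0.23, -0.15 and -0.32 with si-CENPU after trimmed-mean, quantile and GC adjustment, and to -0.12 with si-NC after GC correction. For si-CENPU against si-NC in Huh-7, ANXA3 (0.01) changed sign under trimmed-mean scaling (-0.0021), rescaling (-0.0066) and GC correction (-0.010), and ANXA8L1 (0.02) under quantile scaling (-0.0078) and GC correction (-0.027). Leaving out libraries changed the sign of differences near 0: in MHCC-97H ANXA1 ran from -0.10 to 0.20, ANXA4 from -0.010 to 0.31, ANXA5 from -0.29 to 0.0025, ANXA6 from -0.015 to 0.27, ANXA7 from -0.090 to 0.21, ANXA8 from -0.31 to 0.016 and ANXA11 from -0.067 to 0.14, and in Huh-7 ANXA3 ran from -0.36 to 0.26, ANXA5 from -0.40 to 0.087, ANXA6 from -0.074 to 0.26, ANXA7 from -0.13 to 0.24, ANXA8 from -0.085 to 0.019, ANXA8L1 from -0.041 to 0.066 and ANXA11 from -0.27 to 0.099. Without a change of sign, ANXA2 ran from -0.38 to -0.024, ANXA3 from -0.62 to -0.085 and ANXA8L1 from -0.30 to -0.0056 in MHCC-97H, and ANXA1 from -0.48 to -0.092, ANXA2 from -0.42 to -0.086 and ANXA4 from 0.12 to 0.21 in Huh-7. The ANXA3 difference of responses ran from -0.63 to 0.042. The causes were not tested. All 10 annexins passed the filter, so the test planned for genes below it was not needed, and ANXA1 was not tested at a mean of at least 5 TPM. A fit of only the groups compared could not be made for the difference of responses. TPM without depth limits what can be said of levels near 0.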
